A study of Homo sapiens with 66 samples.

Results

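The transcripts of 7 genes that load, supply or break down proline were measured in 2 multiple myeloma cell lines treated with inhibitors of prolyl-tRNA synthetase. They are EPRS1, the target of these inhibitors, PARS2, ALDH18A1, PYCR1, PYCR3, PRODH and ALDH4A1, and they were chosen for their role, as the drug target and its substrate pathway, from the 20167 genes of the count table. All 7 were found by symbol, and 6 of them passed the filter on low counts in each of the 36 comparisons made here. PRODH passed it in 0 comparisons.

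RNA sequencing had been done on 66 libraries in 22 groups of 3 replicates. AMO1 cells received NCP26, halofuginone (HFG), its alcohol analogue halofuginol or NCP22 at 1 µM, the proteasome inhibitor carfilzomib (CFZ), or DMSO, each for 6 h or 24 h. L363-CFZr cells, carfilzomib-resistant cells of the L363 line, received the same treatments except CFZ. HFG occupies the proline pocket of the enzyme, whereas NCP26 does not bind there and was developed from NCP22. Samples taken at 6 h were frozen overnight and those taken at 24 h were kept on ice before extraction, so time and handling cannot be told apart.

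EPRS1 encodes the cytosolic glutamyl-prolyl-tRNA synthetase, a fused enzyme that charges tRNA with glutamate and with proline and that sits in the multi-tRNA synthetase complex. PARS2 encodes the separate mitochondrial prolyl-tRNA synthetase. Proline is made from glutamate by ALDH18A1, the mitochondrial pyrroline-5-carboxylate synthase, followed by a reductase such as PYCR1 in mitochondria or PYCR3 in the cytosol. It is broken down again in mitochondria by PRODH and ALDH4A1. When charged tRNA runs short, the kinase GCN2 phosphorylates eIF2α, and ATF4 then drives genes of amino acid supply, the integrated stress response (ISR).

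Libraries of AMO1 cells held 1666325 to 5761682 counts and those of L363-CFZr cells 2487872 to 6596543. Levels are given as CPM, the counts scaled to a common library size after TMM normalization, and tests are edgeR's quasi-likelihood fits with p-values adjusted after Benjamini and Hochberg over all genes tested, where a gene was called at an adjusted p under 0.05. Differences are log2 values throughout, with their standard errors (SE). All 8 plasma cell markers exceeded 5 CPM in both lines, while 0 of the B cell, T cell, myeloid and stromal markers did. All treatments of a line and time were compared with the same 3 DMSO libraries, so the values of those libraries enter each comparison. The sample numbers in the column names fall into 3 sets. In AMO1 cells every 6 h library belongs to 1 set, but at 24 h DMSO belongs to 1 set and the 4 compounds to another, so that set and treatment cannot be told apart from these libraries alone. The CFZ group at 24 h holds replicate 1 in the set of DMSO and the other 2 in that of the compounds, and a term for the set in the AMO1 fits rests on that group, in which 1 library stands for a set. In L363-CFZr cells at 6 h, DMSO and NCP26 share a set that HFG and halofuginol do not, and all 24 h libraries share 1 set. There the term rests on NCP22 at 6 h, whose replicate 3 alone is of the set of HFG. DMSO replicate 2 of L363-CFZr at 24 h stood apart from the other DMSO libraries of that group. Leaving it out raised the number of genes called for NCP26 at 24 h from 757 to 3123, and for HFG from 122 to 2062. NCP26 replicate 1 of AMO1 at 6 h had 15581 genes detected against 13577 and 13636 in the other NCP26 libraries, and without it 4376 genes in place of 3975 were called and 2 members. Levels rest on the scaling. With library totals in place of TMM, a setting chosen after the data were seen, the median over all genes moved by over 0.1 in 13 comparisons, to -0.21 with CFZ and 0.19 with HFG at 6 h in AMO1 cells, and of 82 values whose groups did not overlap 13 then overlapped, so values on library totals are given where they differ. The share of calls that were higher then moved by over 10 points in 22 of 31 comparisons, from 52.3% to 15.8% with CFZ and from 51.0% to 69.8% with HFG at 6 h in AMO1 cells. The study states that conditions were run in triplicate, and that its triplicates were biological unless stated otherwise. Nothing in the labels says that replicates came from separate cultures, so p-values measure the spread between these samples.

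EPRS1 lies on chromosome 1 at 219968600 to 220046530, PARS2 on the same chromosome at 54756898 to 54764523 and ALDH4A1 at 18871430 to 18902724. ALDH18A1 lies on chromosome 10 at 95605941 to 95656711, PYCR1 on chromosome 17 at 81932384 to 81942412, and PRODH on chromosome 22 at 18912777 to 18936553. These are positions of GENCODE v44 on GRCh38, and all 7 genes are on the minus strand. EPRS1 has the lowest GC content of their transcripts (42.1%), followed by ALDH18A1 (49.3%) and PARS2 (54.0%), and the other 4 lie between 60.8% and 63.2%. The counts were made from 31-mers, and of those of PYCR1, 23.65% also occur in other genes, the largest partner being an antisense gene that is not in the count table, so its counts are less certain. For PRODH the share is 12.1%, with DGCR6 as the largest partner, for PYCR3 3.65%, and for the other 4 genes 0%.

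EPRS1 rose and ALDH18A1 fell with both NCP26 and HFG in AMO1 cells, so the 250 bases before their start sites are shown, 5′ to 3′ on the gene's strand, from RefSeq on GRCh38.p14. The EPRS1 window is chr1:220046506-220046755 and the ALDH18A1 window is chr10:95656712-95656961. Capitals mark a match to 1 of the 3 motifs that were searched on both strands.
EPRS1: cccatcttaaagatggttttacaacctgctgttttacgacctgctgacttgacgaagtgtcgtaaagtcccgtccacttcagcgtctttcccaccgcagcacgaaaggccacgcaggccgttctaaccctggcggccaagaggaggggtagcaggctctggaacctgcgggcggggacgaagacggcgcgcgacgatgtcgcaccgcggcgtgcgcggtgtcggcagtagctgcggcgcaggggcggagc
ALDH18A1: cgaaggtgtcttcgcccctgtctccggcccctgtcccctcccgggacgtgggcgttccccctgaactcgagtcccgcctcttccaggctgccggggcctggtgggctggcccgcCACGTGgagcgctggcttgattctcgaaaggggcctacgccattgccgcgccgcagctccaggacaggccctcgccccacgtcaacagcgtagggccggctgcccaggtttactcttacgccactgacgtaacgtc
The motifs were TGATGNAA, the core of the element that ATF4 binds with CEBP proteins, CACGTG, the E-box that MYC and USF proteins bind, and CCAAT, the NF-Y motif. No motif contains another. The window of ALDH18A1 held CACGTG once, at position -136, and that of EPRS1 held 0 of the 3 motifs. Of 35116 RefSeq promoter windows of 300 bases, 3.62% held TGATGNAA, 7.26% held CACGTG and 34.6% held CCAAT. PARS2 held CCAAT at 2 positions, and neither of the windows of ALDH4A1 held a match. PYCR1, PYCR3 and PRODH have no entry in the promoter table. A match describes letters, and its absence says only that these letters are not in this window.

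Per kilobase of the median transcript, the median of the group levels was highest for PYCR1, at 134 CPM per kb in AMO1 cells and 177 in L363-CFZr cells, and EPRS1 followed at 98.1 and 144.6. ALDH18A1 stood at 33.5 and 30.4 CPM per kb, PYCR3 at 8.70 and 15.03, ALDH4A1 at 3.79 and 4.11, and PARS2 at 3.30 and 3.58. The order of the first pair depends on the transcript length, since with the longest transcript PYCR1 stood at 51.3 and 67.8 CPM per kb, under EPRS1 at 79.0 and 116. The order of the low genes depends on it too. With the longest transcript PYCR3 stood at 2.60 and 4.50, ALDH4A1 at 2.57 and 2.78, and PARS2 at 3.30 and 3.58. The genes of proline breakdown and the mitochondrial synthetase were low in both lines, and EPRS1, PYCR1 and ALDH18A1 were the highest. PRODH, which carries out the first step of proline breakdown, had at most 4 counts in any of the 66 libraries, so a change of it was not detectable at this depth.

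**Figure D1:**
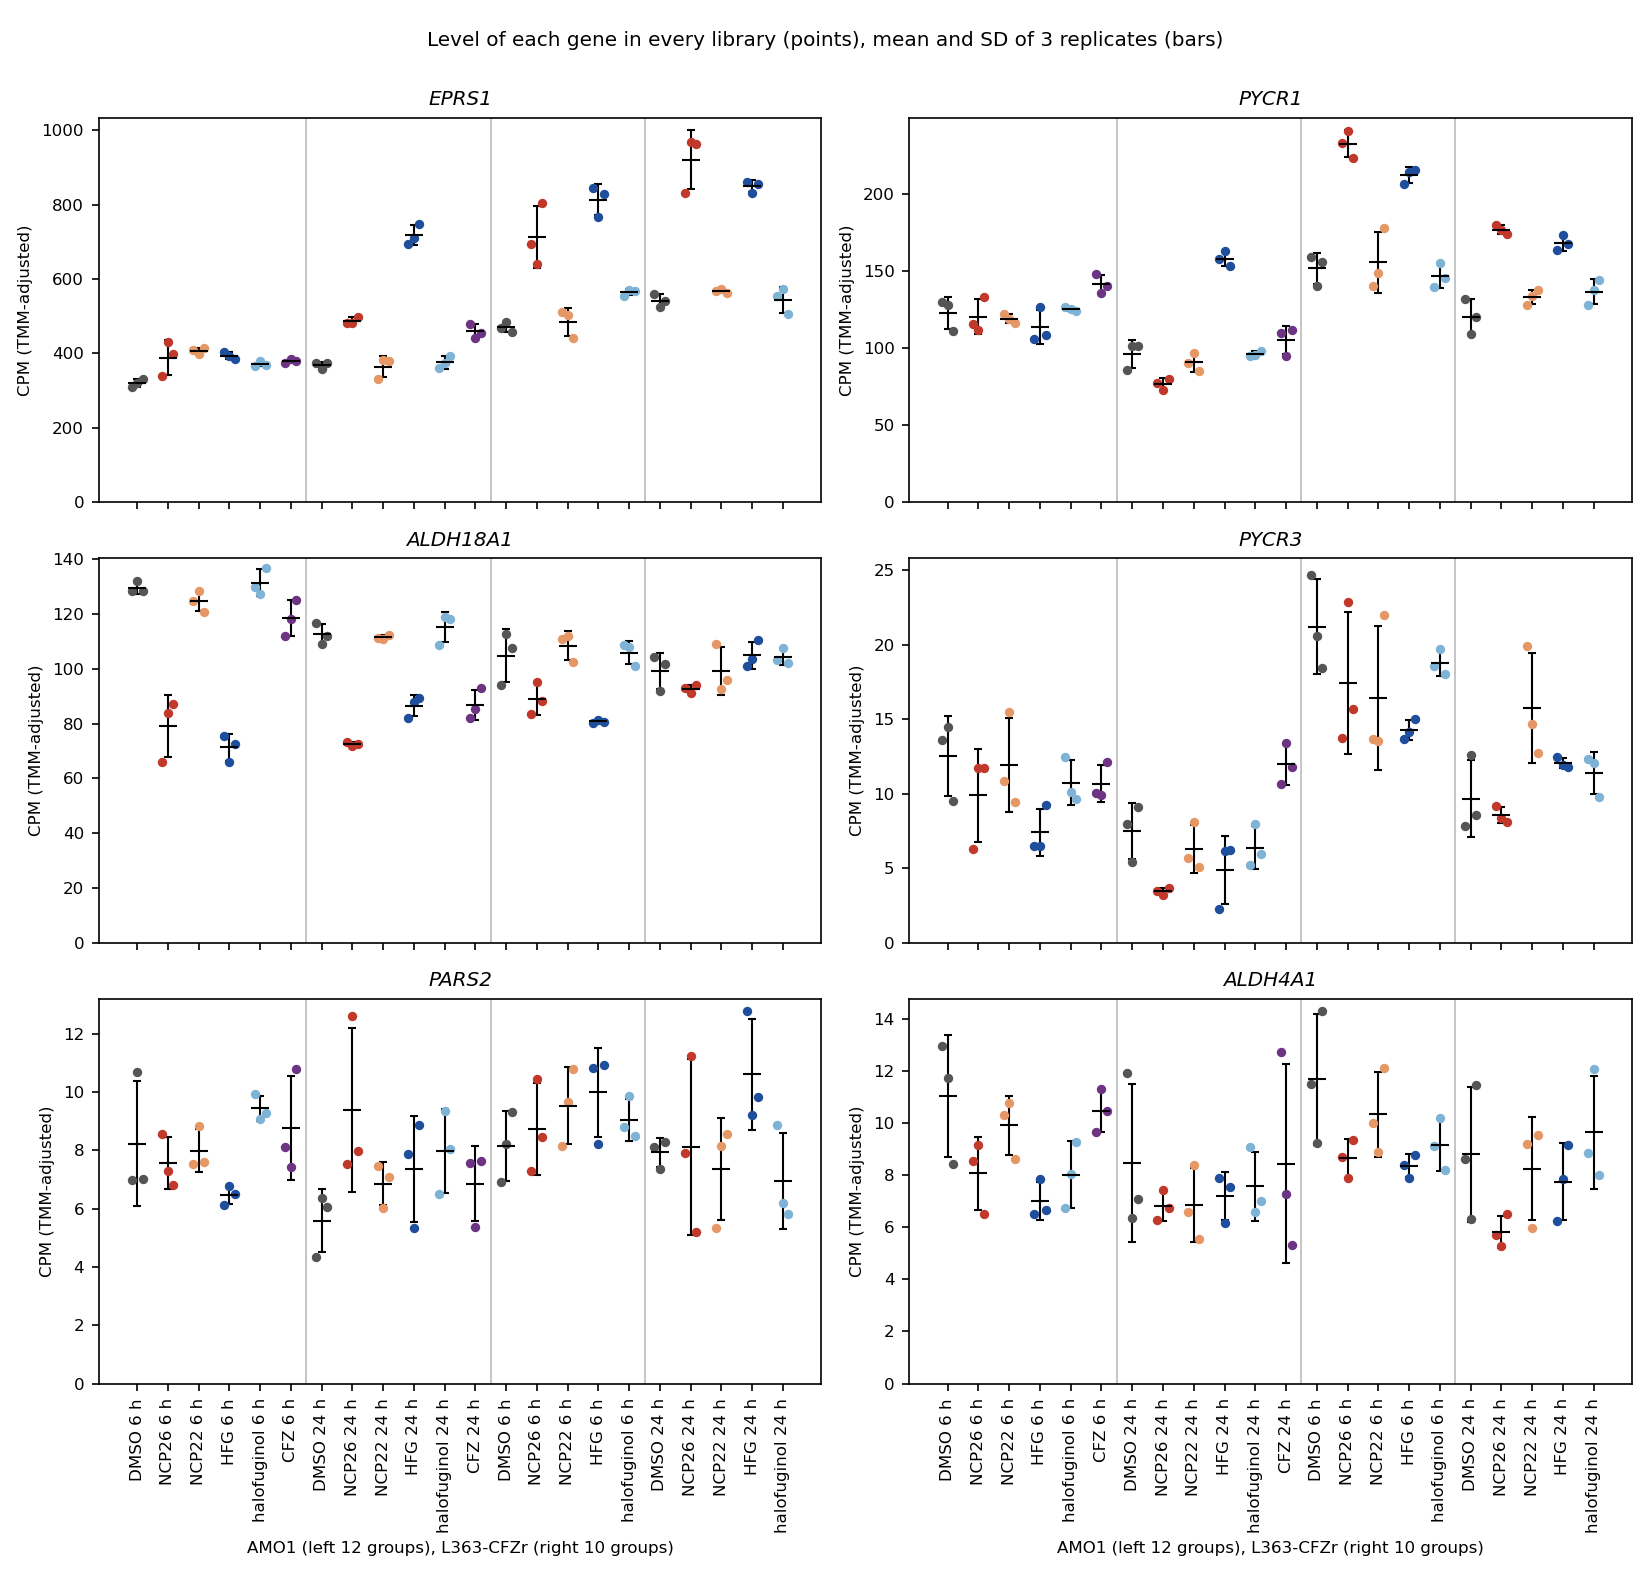
The level of 6 genes in CPM (vertical axis, from 0) in each of the 66 libraries (points), with the mean and SD of 3 replicates (bars), for 12 groups of AMO1 and 10 groups of L363-CFZr cells ordered by time and treatment along the horizontal axis. EPRS1 rises from 320.5 CPM with DMSO at 6 h in AMO1 cells to 921 with NCP26 at 24 h in L363-CFZr cells, ALDH18A1 is lowest with HFG at 6 h in AMO1 cells (71.3), and PYCR1 is highest with NCP26 at 6 h in L363-CFZr cells (233).

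The order of the EPRS1 levels ran from AMO1 with DMSO at 6 h to L363-CFZr with NCP26 at 24 h, and 4 of the 21 neighbouring pairs of groups in that order did not overlap between libraries. The highest 4 groups were L363-CFZr with NCP26 and HFG at 24 h, L363-CFZr with HFG at 6 h and AMO1 with HFG at 24 h. For PYCR1, 6 of 21 neighbouring pairs did not overlap, and the highest 4 groups were L363-CFZr with NCP26 or HFG at either time. ALDH18A1 had 1 such pair, and its lowest 4 groups were AMO1 with HFG at 6 h, NCP26 at 24 h and NCP26 at 6 h, followed by L363-CFZr with HFG at 6 h. PYCR3, ALDH4A1 and PARS2 had 0, so their order between neighbours is within the spread of replicates. Such pairs were not counted over all genes, so these counts describe the order and are no result about the members.

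EPRS1 rose in 7 of 10 comparisons with DMSO in AMO1 cells and in 4 of 8 in L363-CFZr cells, and fell in 0. In AMO1 cells at 6 h its level was 309, 320.4 and 332 CPM with DMSO. With NCP26 it was 339, 431 and 397 CPM, and with HFG 404, 394 and 384. Every library with either inhibitor was above every DMSO library. The log2 fold change was 0.29 (SE 0.10, adjusted p = 0.0386) for NCP26 and 0.30 (SE 0.069, adjusted p = 0.00175) for HFG. NCP22, at 409, 399 and 413 CPM, and CFZ, at 374, 386 and 379, also lay above DMSO in every library, with changes of 0.32 (SE 0.064, adjusted p = 0.00208) and 0.25 (SE 0.065, adjusted p = 0.00557). On library totals the CFZ libraries, at 312, 332 and 305 CPM, overlapped with DMSO, at 292, 305 and 324, and the CFZ call was lost, at 0.044 (adjusted p = 0.610), while NCP26 and HFG gave 0.46 (adjusted p = 0.00669) and 0.48 (adjusted p = 3.38e-05). Halofuginol, at 367, 379 and 369.7 CPM, was above DMSO in every library too and gave 0.20 (SE 0.062, adjusted p = 0.0788). With TMM the values of all 5 treatments at 6 h lay between 0.20 and 0.32. With an offset for transcript GC content the change was 0.076 (adjusted p = 0.549) for NCP26, 0.051 (adjusted p = 0.450) for HFG and 0.17 (adjusted p = 0.0676) for NCP22, so these 3 calls were lost. The NCP26 call was also lost without the filter on low counts, at 0.28 (adjusted p = 0.0612), and without any 1 of DMSO replicates 1, 2 and 3 or NCP26 replicates 2 and 3, with log2 values from 0.24 to 0.31.

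At 24 h in AMO1 cells EPRS1 stood at 373, 358 and 374 CPM with DMSO, at 482, 482 and 498 with NCP26 and at 694, 711 and 748 with HFG. Every inhibitor library was above every DMSO library. HFG gave a log2 fold change of 0.97 (SE 0.046, adjusted p = 3.49e-12), which is 1.95-fold, and NCP26 gave 0.39 (SE 0.044, adjusted p = 4.74e-09). With the set as a further term in the fit the values were 1.03 (adjusted p = 2.15e-08) for HFG and 0.45 (adjusted p = 0.00433) for NCP26. NCP22, at 332, 381 and 379 CPM, and halofuginol, at 359.8, 375 and 394, belong to the same set as the inhibitors and overlapped with DMSO. Their differences from DMSO were -0.00041 (95% interval -0.14 to 0.14, adjusted p = 1.000) and 0.031 (95% interval -0.087 to 0.15, adjusted p = 0.891). CFZ, at 480.1, 441 and 456 CPM, gave 0.37 (SE 0.10, adjusted p = 0.0256), a call that was lost without the filter, at 0.35 (adjusted p = 0.0680), and when any of the 3 DMSO libraries, CFZ replicate 1 or CFZ replicate 3 was left out (0.35 to 0.39).

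In L363-CFZr cells at 6 h EPRS1 was at 469, 485 and 459 CPM with DMSO, 695, 642 and 805 with NCP26 and 844, 766 and 828 with HFG. Neither inhibitor overlapped with DMSO, and the changes were 0.62 (SE 0.11, adjusted p = 0.00415) and 0.83 (SE 0.055, adjusted p = 1.29e-11). The HFG and DMSO libraries are not of 1 set, and with a term for the set the HFG value was 1.01 (adjusted p = 3.29e-05). NCP22, at 510.1, 502 and 442 CPM, overlapped with DMSO and differed by 0.056 (95% interval -0.088 to 0.20, adjusted p = 0.954). Halofuginol, at 555, 572 and 567 CPM, gave 0.23 (SE 0.049, adjusted p = 0.00263), but 0.033 (adjusted p = 0.782) with the GC offset, 0.22 (adjusted p = 0.0889) with all groups of the line in one fit and 0.44 (adjusted p = 0.112) with the term for the set.

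At 24 h the L363-CFZr levels were 559, 525 and 541 CPM with DMSO, 830.1, 969.7 and 963 with NCP26 and 862, 832 and 856 with HFG. Both inhibitors were again above DMSO in every library. NCP26 gave 0.75 (SE 0.14, adjusted p = 0.0206), and the HFG value of 0.63 (SE 0.11, adjusted p = 0.0520) missed the threshold. The HFG value was 0.64 (adjusted p = 4.11e-10) without DMSO replicate 2 and 0.64 (adjusted p = 1.32e-05) by DESeq2. The NCP26 call was lost when DMSO replicate 1 or 3 or any NCP26 replicate was left out, with values from 0.71 to 0.81. NCP22 and halofuginol differed from DMSO by 0.037 (95% interval -0.23 to 0.30, adjusted p = 0.918) and -0.014 (95% interval -0.30 to 0.27, adjusted p = 0.968).

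PARS2, the mitochondrial enzyme, was low and scattered, with 12 to 56 counts per library. It passed the test against DMSO once, with NCP26 at 24 h in AMO1 cells, where it was at 7.55, 12.6 and 7.98 CPM against 4.34, 6.36 and 6.07 with DMSO. The log2 fold change was 0.69 (SE 0.26, adjusted p = 0.0216), and it was 0.42 (adjusted p = 0.220) without NCP26 replicate 2, 0.58 (adjusted p = 0.0694) without DMSO replicate 1, 0.72 (adjusted p = 0.0820) by DESeq2 and 0.87 (adjusted p = 0.162) with the term for the set. Over the other 17 comparisons with DMSO its values ran from -0.34 to 0.50.

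The partners of EPRS1 in the multi-tRNA synthetase complex were read from a list of 9 genes, AIMP1, AIMP2, EEF1E1, IARS1, KARS1, LARS1, MARS1, QARS1 and RARS1. In L363-CFZr cells at 6 h, 5 of 9 rose and 0 fell with NCP26, where 18.8% of all genes were called, and 6 of 9 rose and 2 fell with HFG (54.5%), with medians of 0.38 and 0.32 beside 0.013 and -0.0022 over all genes. Halofuginol there gave 4 of 9 risen and 2 fallen (25.8%), and with NCP22 0 were called by edgeR or by DESeq2 (0%). The HFG and halofuginol libraries are not of the set of DMSO, so set and treatment cannot be told apart for them. On library totals 7 rose and 2 fell with HFG in L363-CFZr cells at 6 h. In AMO1 cells at 24 h, 5 of 9 rose and 2 fell with NCP26 (60.7%) and 7 of 9 rose and 1 fell with HFG (59%). On library totals 6 rose and 2 fell there with NCP26. At 6 h in AMO1 cells, 1 of 9 rose and 1 fell with NCP26 (37.3%) and 2 of 9 rose and 2 fell with HFG (54.3%), and on library totals 5 rose and 1 fell with NCP26 and 5 rose and 1 fell with HFG. In the same cells at 6 h, 3 of 9 rose and 0 fell with NCP22 (13.5%) and with CFZ (26.9%), and 1 rose and 0 fell with halofuginol (3.62%). On library totals 2 rose and 1 fell with CFZ. For L363-CFZr cells at 24 h, 3 of 9 rose and 0 fell with NCP26 (7.09%) and 2 of 9 rose and 0 fell with HFG (1.17%). IARS1, the isoleucyl-tRNA synthetase, rose in all 8 comparisons of NCP26 and HFG with DMSO, by 0.43 to 1.24. MARS1, the methionyl-tRNA synthetase, rose in 6 of the 8, up to 1.07 (SE 0.12, adjusted p = 0.00335) with NCP26 at 24 h in L363-CFZr cells. QARS1, the glutaminyl-tRNA synthetase, fell in 5 of 8, down to -0.98 (SE 0.052, adjusted p = 2.48e-16) with NCP26 at 24 h in AMO1 cells. KARS1, the lysyl-tRNA synthetase, fell in 3 of 8, the lowest being -0.49 (SE 0.062, adjusted p = 5.32e-08) in the same comparison, and its call with HFG at 6 h in AMO1 cells was lost on library totals, at -0.14 (adjusted p = 0.0841). LARS1, the leucyl-tRNA synthetase, rose in 5 of 8, with 0.65 (SE 0.062, adjusted p = 5.27e-08) for HFG at 24 h in AMO1 cells. AIMP2 and EEF1E1 rose in 4 of 8 each, and AIMP1 and RARS1 in 2.

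**Figure D2:**
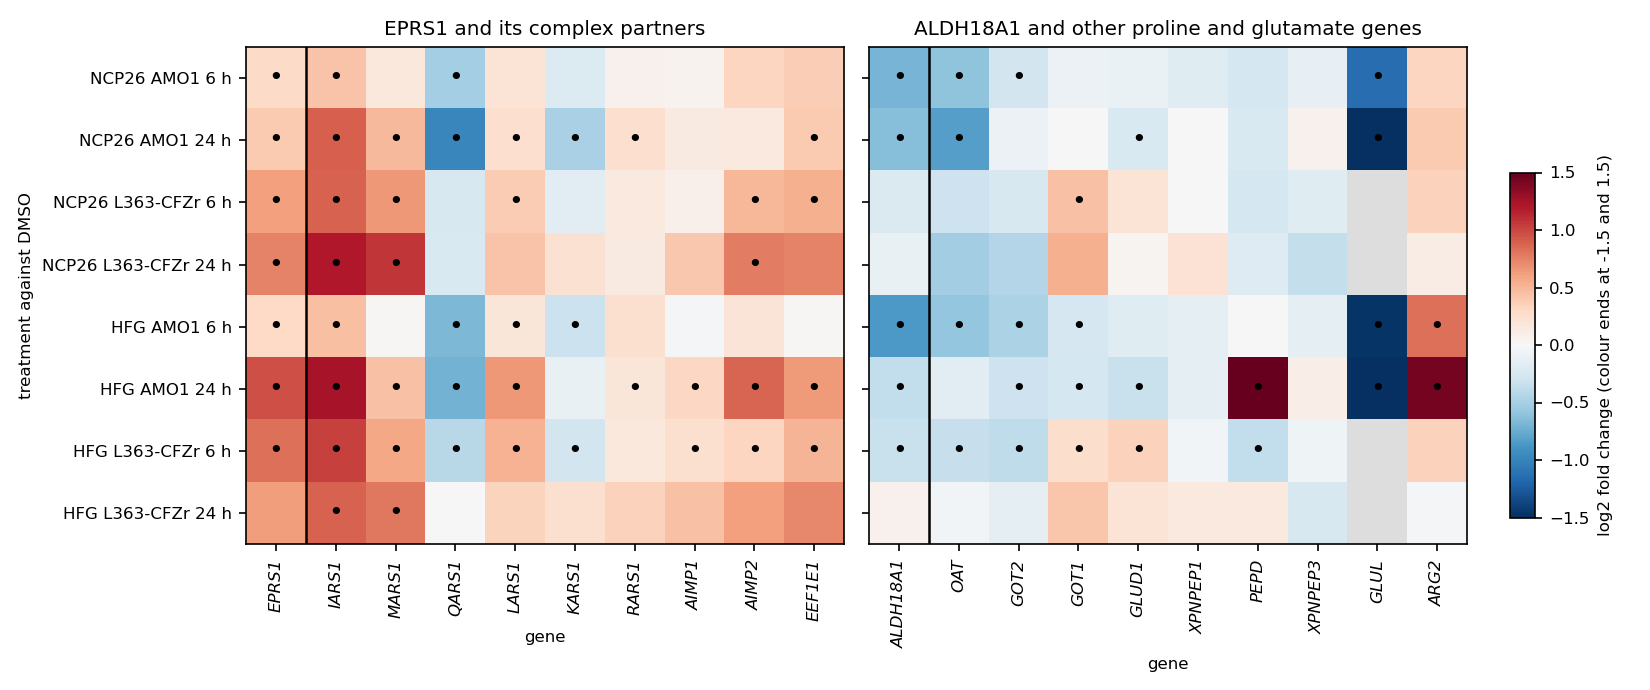
Log2 fold change against DMSO (colour, which ends at -1.5 and 1.5) of EPRS1 with its complex partners (left) and of ALDH18A1 with other genes of proline and glutamate metabolism (right), in 8 comparisons of NCP26 or HFG (rows of tiles). Dots mark an adjusted p under 0.05 and grey tiles a gene that did not pass the filter. IARS1 is red in all 8 rows of tiles, QARS1 is blue with a dot in 5, and GLUL has its lowest value, -3.63, with HFG at 24 h in AMO1 cells.

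ALDH18A1, which commits glutamate to proline synthesis, fell with both inhibitors in AMO1 cells at both times. At 6 h it stood at 128, 132 and 128 CPM with DMSO, 66.2, 83.9 and 87.1 with NCP26 and 75.6, 65.9 and 72.4 with HFG. Every inhibitor library was below every DMSO library, and the changes were -0.70 (SE 0.10, adjusted p = 3.04e-04) and -0.86 (SE 0.085, adjusted p = 5.77e-07). At 24 h the levels were 117, 109 and 112 CPM with DMSO, 73.3, 71.9 and 72.4 with NCP26 and 82.2, 88.1 and 89.4 with HFG. The groups again did not overlap, with changes of -0.64 (SE 0.074, adjusted p = 9.89e-09) and -0.37 (SE 0.073, adjusted p = 2.88e-04). With a term for the set these were -0.80 (adjusted p = 4.64e-05) and -0.52 (adjusted p = 0.00388). These 4 calls held in each alternative and without each library.

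Neither NCP22 nor halofuginol passed the test for ALDH18A1 in AMO1 cells. NCP22 was at 125, 128 and 121 CPM at 6 h and 111, 111 and 112 at 24 h, with differences from DMSO of -0.077 (95% interval -0.24 to 0.085, adjusted p = 0.548) and 0.0040 (95% interval -0.16 to 0.16, adjusted p = 1.000). Halofuginol was at 129.8, 127 and 137 and 109, 119 and 118 CPM, with differences of -0.0011 (95% interval -0.15 to 0.15, adjusted p = 0.996) and 0.042 (95% interval -0.11 to 0.20, adjusted p = 0.886). CFZ was at 82.2, 85.2 and 93.1 CPM at 24 h, below DMSO in every library, and its difference of -0.32 (SE 0.10, adjusted p = 0.0532) just missed the threshold. At 6 h CFZ gave -0.12 (95% interval -0.28 to 0.043, adjusted p = 0.283), and -0.33 (adjusted p = 0.00247) on library totals. With all AMO1 groups in one fit the CFZ value at 24 h was -0.32 (adjusted p = 6.46e-04).

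In L363-CFZr cells ALDH18A1 passed the test in 1 of the 4 comparisons of NCP26 and HFG with DMSO, that of HFG at 6 h. At 6 h it was at 94.2, 113 and 107 CPM with DMSO, 83.5, 95.02 and 88.3 with NCP26 and 80.3, 81.4 and 80.8 with HFG. The HFG libraries did not overlap with DMSO and the NCP26 libraries did, by 1 library on each side. HFG gave -0.34 (SE 0.080, adjusted p = 0.00101) and -0.23 (adjusted p = 0.254) with the term for the set, and NCP26 gave -0.22 (95% interval -0.45 to 0.012, adjusted p = 0.168). The NCP26 value was called with all groups of the line in one fit, at -0.24 (adjusted p = 0.0219), and with the term for the set, at -0.24 (adjusted p = 0.0205). It was also called without NCP26 replicate 2, at -0.26 (adjusted p = 0.0357). At 24 h the levels with DMSO, at 104, 91.98 and 102 CPM, NCP26, at 92.9, 91.2 and 94.1, and HFG, at 101, 104 and 110.4, overlapped. The differences were -0.12 (95% interval -0.37 to 0.14, adjusted p = 0.582) for NCP26 and 0.059 (95% interval -0.19 to 0.30, adjusted p = 0.771) for HFG.

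**Figure D3:**
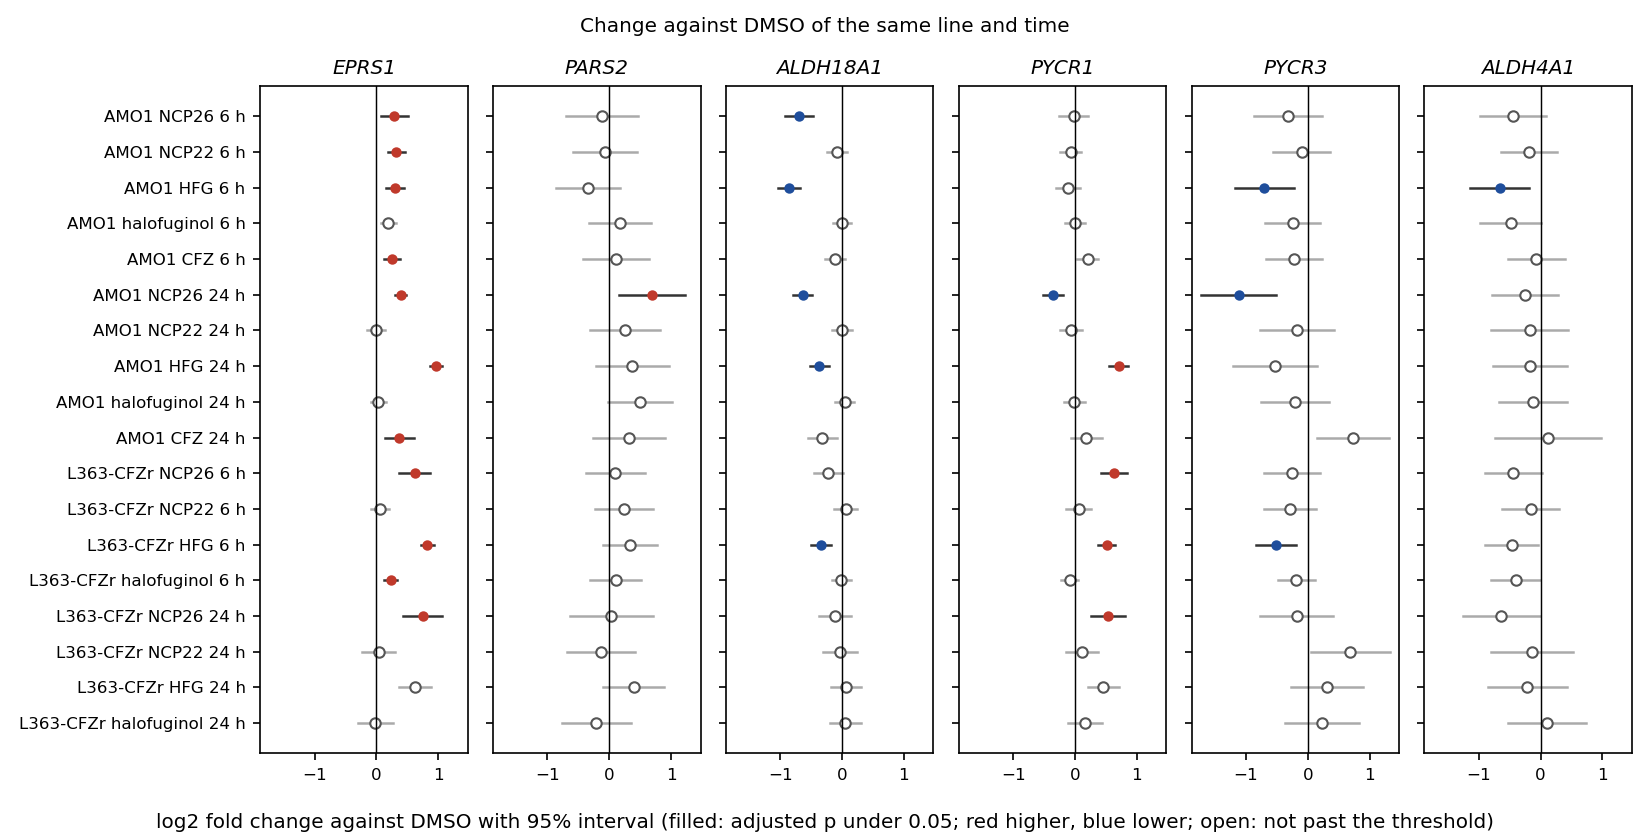
Log2 fold change against DMSO of the same line and time (horizontal axis, with its 95% interval) for 6 genes (panels) in 18 comparisons (vertical axis). Filled points passed an adjusted p of 0.05, red above and blue below 0. EPRS1 is filled in 11 of the 18, at values from 0.23 to 0.97, ALDH18A1 is blue in 5, from -0.86 to -0.34, and PYCR1 is blue once, with NCP26 at 24 h in AMO1 cells.

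PYCR1, a mitochondrial reductase of the last step of proline synthesis, differed between inhibitors and between lines. In AMO1 cells at 6 h it was at 129.9, 128 and 111 CPM with DMSO, 116, 112 and 133 with NCP26 and 106, 126 and 108 with HFG. The groups overlapped, with differences of -0.018 (95% interval -0.25 to 0.22, adjusted p = 0.909) and -0.11 (95% interval -0.31 to 0.080, adjusted p = 0.307). With the GC offset the NCP26 value turned to 0.24 (adjusted p = 0.0441). At 24 h DMSO was at 85.8, 102 and 101 CPM, NCP26 at 77.7, 72.5 and 79.8 and HFG at 158, 163 and 153. HFG lay above DMSO in every library and NCP26 below it, the latter with overlap on library totals, at 85.5, 81.1 and 87.4 CPM with NCP26 and 87.4, 101 and 99.9 with DMSO, with changes of 0.71 (SE 0.072, adjusted p = 1.31e-07) and -0.35 (SE 0.078, adjusted p = 2.95e-04). The HFG call held in each alternative, with 0.76 (adjusted p = 1.22e-04) under the term for the set. The NCP26 call was lost with the GC offset, at -0.17 (adjusted p = 0.0556), and with the term for the set, at -0.30 (adjusted p = 0.136), and was -0.19 (adjusted p = 0.0315) on library totals.

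In L363-CFZr cells PYCR1 rose with both inhibitors at 6 h. It was at 159, 141 and 156 CPM with DMSO, 233, 241 and 224 with NCP26 and 207, 214 and 216 with HFG. Every treated library was above every DMSO library, with changes of 0.63 (SE 0.10, adjusted p = 0.00177) and 0.52 (SE 0.067, adjusted p = 7.91e-07), of which the HFG value was 0.20 (adjusted p = 0.288) with the term for the set. At 24 h DMSO stood at 132, 109 and 120.2 CPM, NCP26 at 180.2, 177 and 174 and HFG at 164, 174 and 168. Neither inhibitor overlapped with DMSO. NCP26 gave 0.54 (SE 0.12, adjusted p = 0.0383), a call lost without the filter, at 0.54 (adjusted p = 0.0734), and when DMSO replicate 1 or 3 or any NCP26 replicate was left out (0.52 to 0.60), and HFG gave 0.46 (95% interval 0.21 to 0.72, adjusted p = 0.106). Without DMSO replicate 2 the HFG value was 0.43 (adjusted p = 3.39e-05). NCP22 and halofuginol passed the test for PYCR1 in 0 of 8 comparisons with DMSO by edgeR and by DESeq2, and in 0 at an unadjusted p under 0.05, with values from -0.09 to 0.16. CFZ gave 0.21 (95% interval 0.038 to 0.38, adjusted p = 0.0641) at 6 h and 0.19 (95% interval -0.063 to 0.44, adjusted p = 0.235) at 24 h in AMO1 cells.

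PYCR3, the cytosolic reductase, was low, with 4 to 116 counts per library. At 24 h in AMO1 cells it was at 7.96, 5.42 and 9.10 CPM with DMSO, 3.46, 3.24 and 3.68 with NCP26 and 2.25, 6.17 and 6.24 with HFG. NCP26 lay below DMSO in every library, with a change of -1.12 (SE 0.30, adjusted p = 0.00174) and -1.40 (adjusted p = 0.0310) with the term for the set. HFG overlapped with DMSO and gave -0.52 (95% interval -1.21 to 0.16, adjusted p = 0.174). PYCR3 was also called lower with HFG at 6 h in both lines. The L363-CFZr libraries of HFG and DMSO at 6 h are not of 1 set, and the call there held with the term for the set. Against halofuginol, which is of the set of HFG, PYCR3 was not called in those cells, with an unadjusted p under 0.05 by edgeR. That difference ran from -0.37 to -0.29 when single libraries were left out. With HFG at 6 h in AMO1 cells PYCR3 was at 6.52, 6.51 and 9.26 CPM against 13.6, 14.5 and 9.50 with DMSO, and in L363-CFZr cells at 13.7, 14.2 and 14.9977 against 24.7, 20.6 and 18.4. The changes were -0.70 (SE 0.23, adjusted p = 0.0166) and -0.51 (SE 0.16, adjusted p = 0.00893), and with the GC offset -0.46 (adjusted p = 0.0903) and -0.17 (adjusted p = 0.431). The AMO1 call was also lost by DESeq2, at -0.73 (adjusted p = 0.0505), on library totals, at -0.52 (adjusted p = 0.0619) with groups that overlapped, and without DMSO replicate 1, DMSO replicate 2 or HFG replicate 2 (-0.65 to -0.59), and the L363-CFZr call without DMSO replicate 1, at -0.39 (adjusted p = 0.0699). In the DMSO groups themselves PYCR3 was lower at 24 h than at 6 h, at 7.49 ± 1.88 against 12.5 ± 2.67 CPM in AMO1 cells and 9.69 ± 2.58 against 21.2 ± 3.19 in L363-CFZr cells (SD, n = 3). That comparison was not tested. The L363-CFZr DMSO libraries at 6 h and 24 h are of different sets, so time, handling and set cannot be told apart there.

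ALDH4A1, which oxidizes pyrroline-5-carboxylate to glutamate, had 11 to 66 counts per library and passed the test once. With HFG at 6 h in AMO1 cells it was at 6.52, 7.87 and 6.66 CPM against 12.96, 11.7 and 8.44 with DMSO. The HFG libraries lay below the DMSO libraries, with a change of -0.66 (SE 0.23, adjusted p = 0.0215) that was -0.45 (adjusted p = 0.0922) with the GC offset, -0.67 (adjusted p = 0.0890) by DESeq2, -0.48 (adjusted p = 0.0770) on library totals with groups that overlapped, and lost without DMSO replicate 1, DMSO replicate 2 or HFG replicate 3 (-0.62 to -0.55). In L363-CFZr cells NCP26 at 24 h, at 5.69, 5.27 and 6.51 CPM against 8.61, 6.32 and 11.48 with DMSO, gave -0.63 (95% interval -1.25 to -0.015, adjusted p = 0.207). With all groups of the line in one fit that value was -0.64 (adjusted p = 0.0431), and without DMSO replicate 2 it was -0.79 (adjusted p = 0.0365).

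The counts of members called are read against the share of all genes called in the same comparison. In AMO1 cells at 6 h, 2 of 6 members were called with NCP26, where 37.3% of 10666 genes were called, 4 with HFG (54.3%), 1 with CFZ (26.9%) and 1 with NCP22 (13.5%). At 24 h, 5 members were called with NCP26 (60.7%), 3 with HFG (59%) and 1 with CFZ (27%). In L363-CFZr cells at 6 h, 2 were called with NCP26 (18.8%), 4 with HFG (54.5%) and 1 with halofuginol (25.8%). At 24 h, 2 were called with NCP26 (7.09%). By edgeR 0 members were called with halofuginol at 6 h in AMO1 cells (3.62%), where 1 had an unadjusted p under 0.05 and 1 was called by DESeq2. For HFG at 24 h in L363-CFZr cells (1.17%) edgeR called 0, 2 had an unadjusted p under 0.05, and DESeq2 called those 2, EPRS1 and PYCR1. By edgeR and by DESeq2 0 members were called with NCP22 (0%) and halofuginol (0.183%) at 24 h in AMO1 cells, with NCP22 at 6 h (0%), NCP22 at 24 h (0%) and halofuginol at 24 h (0%) in L363-CFZr cells. Of these 5 comparisons, 1 held a member at an unadjusted p under 0.05, PYCR3 with NCP22 at 24 h in L363-CFZr cells at 0.69 (95% interval 0.046 to 1.33, adjusted p = 0.792).

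The neighbours of the pathway were read from a list of 13 genes of proline and glutamate metabolism, of which 9 passed the filter in AMO1 and 8 in L363-CFZr cells. At 6 h in AMO1 cells, 0 of 9 rose and 3 fell with NCP26, where 37.3% of all genes were called, and 1 of 9 rose and 4 fell with HFG (54.3%). At 24 h, 0 of 9 rose and 3 fell with NCP26 (60.7%) and 2 of 9 rose and 4 fell with HFG (59%). On library totals at 6 h, 0 rose and 2 fell with NCP26 and 1 rose and 3 fell with HFG. At 24 h they gave 2 risen and 2 fallen with NCP26 and 2 risen and 3 fallen with HFG. With 9 genes and these shares over all genes, the counts are no result about the list. In L363-CFZr cells at 6 h, 1 of 8 rose and 0 fell with NCP26 (18.8%) and 2 of 8 rose and 3 fell with HFG (54.5%). On library totals 3 rose and 3 fell there with HFG. At 24 h in L363-CFZr cells, edgeR called 0 of 8 with NCP26 (7.09%) and 0 of 8 with HFG (1.17%), where 3 and 1 had an unadjusted p under 0.05 and DESeq2 called 2 and 0. OAT, which makes pyrroline-5-carboxylate from ornithine, fell in AMO1 cells at 6 h, at -0.61 (SE 0.094, adjusted p = 3.79e-04) with NCP26 and -0.59 (SE 0.078, adjusted p = 1.30e-05) with HFG, and at 24 h gave -0.83 (SE 0.071, adjusted p = 1.83e-11) with NCP26 and -0.15 (SE 0.067, adjusted p = 0.0568) with HFG. It was also called lower with HFG at 6 h in L363-CFZr cells, where HFG and DMSO are not of 1 set, and so fell in 4 of 8 comparisons. GOT2, the mitochondrial aspartate aminotransferase, fell in 4 of 8 comparisons of NCP26 and HFG with DMSO, down to -0.47 (SE 0.073, adjusted p = 6.17e-05) with HFG at 6 h in AMO1 cells, and its call with NCP26 there was lost on library totals, at -0.11 (adjusted p = 0.394). GOT1, its cytosolic counterpart, fell with HFG at 6 h and 24 h in AMO1 cells, calls that library totals lost at -0.071 (adjusted p = 0.454) and -0.16 (adjusted p = 0.0827), and rose with both inhibitors at 6 h in L363-CFZr cells, by 0.44 (SE 0.10, adjusted p = 0.0105) with NCP26 and 0.27 (SE 0.067, adjusted p = 0.00168) with HFG. GLUD1, a glutamate dehydrogenase, fell with both at 24 h in AMO1 cells, at -0.22 (SE 0.073, adjusted p = 0.00899) with NCP26, or -0.068 (adjusted p = 0.429) on library totals, and -0.34 (SE 0.074, adjusted p = 7.39e-04) with HFG, and rose with HFG at 6 h in L363-CFZr cells by 0.34 (SE 0.077, adjusted p = 6.10e-04). PEPD, the dipeptidase that frees proline from peptides, rose with HFG at 24 h in AMO1 cells by 1.51 (SE 0.18, adjusted p = 1.30e-06), against -0.23 (SE 0.24, adjusted p = 0.426) with NCP26, and fell with HFG at 6 h in L363-CFZr cells, at -0.37 (SE 0.10, adjusted p = 0.00402). GLUL, the glutamine synthetase, named here after its values were seen, passed the filter in AMO1 but not in L363-CFZr comparisons with DMSO. It fell in all 4 AMO1 comparisons of NCP26 and HFG with DMSO, by values from -3.63 to -1.15. The lowest was that of HFG at 24 h (SE 0.15, adjusted p = 6.17e-13).

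Of 7 listed proline transporters, 4 passed the filter. SLC1A4, a carrier of neutral amino acids, rose with both inhibitors at 6 h, by 0.53 (SE 0.10, adjusted p = 0.00149) and 0.48 (SE 0.075, adjusted p = 6.17e-05) in AMO1 cells and by 0.71 (SE 0.10, adjusted p = 0.00107) and 0.66 (SE 0.062, adjusted p = 7.18e-09) in L363-CFZr cells for NCP26 and HFG. SLC38A2, a sodium-coupled carrier of small neutral amino acids, rose at 6 h in L363-CFZr cells, by 0.77 (SE 0.12, adjusted p = 0.00171) with NCP26 and 1.21 (SE 0.071, adjusted p = 1.24e-12) with HFG, whereas in AMO1 cells it gave 0.10 and 0.020 at 6 h. With CFZ at 6 h in AMO1 cells both rose too, SLC1A4 by 0.47 and SLC38A2 by 0.43. At 24 h in AMO1 cells 3 of 4 rose and 1 fell with HFG (59% of all genes), with a median of 0.80, 1 of 4 rose and 0 fell with NCP26 (60.7%) and 3 of 4 rose and 1 fell with CFZ (27%). On library totals 3 of 4 rose and 0 fell with NCP26, with a median of 0.24. SLC38A2 was the gene that fell, at -0.46 (SE 0.052, adjusted p = 5.03e-07) with HFG. SLC36A1, a proton-coupled carrier, rose in 4 of 8 comparisons of NCP26 and HFG with DMSO, all in AMO1 cells, up to 1.19, and SLC36A4 in 1. At 24 h in L363-CFZr cells edgeR and DESeq2 called 0 of 4 with NCP26 (7.09% of all genes) and with HFG (1.17%), and 2 and 0 had an unadjusted p under 0.05. With 4 genes and these shares, the counts are no result about the transporters. The 6 ISR reference genes ASNS, ATF4, CHAC1, DDIT3, SESN2 and TRIB3 had medians of 0.83 with NCP26 and 0.59 with HFG at 6 h in AMO1 cells. In L363-CFZr cells at 6 h the medians were 2.55 and 2.45. All 6 rose there with NCP26 (18.8% of all genes called) and with HFG (54.5%). With CFZ at 6 h in AMO1 cells all 6 rose too (26.9%), with a median of 1.32. At 24 h the medians were 1.65 with NCP26 and 1.47 with HFG in AMO1 cells, where DMSO is of another set. In L363-CFZr cells at 24 h they were 2.70 and 2.01. With CFZ at 24 h in AMO1 cells 0 of 6 rose and 1 fell (27%), with a median of -0.11, and DESeq2 called 2. Between the DMSO groups at 6 h, 5 of 6 were lower in L363-CFZr than in AMO1 cells (60.2%), with a median of -0.83. Line and set cannot be told apart in that comparison. With halofuginol at 6 h in L363-CFZr cells (25.8% of all genes), 0 of 6 rose and 4 fell, with a median of -0.27. DESeq2 called 2 there, and on library totals 0 rose and 2 fell. These halofuginol libraries are not of the set of DMSO, so set and treatment cannot be told apart between the 2 groups. At 6 h in AMO1 cells, 3 of 6 rose and 0 fell with NCP22 (13.5% of all genes) and 3 of 6 rose and 0 fell with halofuginol (3.62%), with medians of 0.23 and 0.25. On library totals 4 rose and 0 fell there with NCP22. With NCP22 at 6 h in L363-CFZr cells (0% of all genes), 0 of 6 were called by edgeR or by DESeq2 and 1 had an unadjusted p under 0.05, with a median of -0.16.

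The compounds were compared with each other in 12 pairs at matched dose, time and line. NCP26 against NCP22 compares a compound with the one it was developed from. In AMO1 cells at 6 h, 1 of 6 members was called (24.7% of all genes), ALDH18A1 at -0.59 (SE 0.10, adjusted p = 0.00134), while EPRS1 differed by -0.0034 (95% interval -0.20 to 0.19, adjusted p = 0.982). At 24 h, where both groups are of the same set, 4 were called (52%). They were ALDH18A1 at -0.62 (SE 0.075, adjusted p = 1.09e-05), EPRS1 at 0.41 (SE 0.064, adjusted p = 1.08e-04), PYCR1 at -0.26 (SE 0.082, adjusted p = 0.0169) and PYCR3 at -0.92 (SE 0.30, adjusted p = 0.0202). Of these, PYCR1 and PYCR3 lost the call with the GC offset, at -0.049 (adjusted p = 0.644) and -0.71 (adjusted p = 0.0683), by DESeq2, at -0.27 (adjusted p = 0.0709) and -0.91 (adjusted p = 0.111), PYCR1 on library totals, at -0.10 (adjusted p = 0.328), and both without NCP22 replicate 2 or NCP26 replicate 2, and PYCR3 also without NCP26 replicate 1.

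In L363-CFZr cells NCP26 exceeded NCP22 for 2 members at 6 h (20.4%), EPRS1 at 0.55 (SE 0.12, adjusted p = 0.00864) and PYCR1 at 0.57 (SE 0.11, adjusted p = 0.00543). Without NCP22 replicate 3, the library of that group from another set, the EPRS1 value was 0.49 (adjusted p = 0.0591). ALDH18A1 was not called at 6 h, but with all groups of the line in one fit it gave -0.30 (adjusted p = 0.00465). At 24 h, 3 were called (34.1%), namely EPRS1 at 0.70 (SE 0.079, adjusted p = 1.31e-05), PYCR1 at 0.41 (SE 0.078, adjusted p = 0.00107) and PYCR3 at -0.87 (SE 0.21, adjusted p = 0.00534). ALDH18A1 differed by -0.094 (95% interval -0.29 to 0.10, adjusted p = 0.445). The PYCR3 means at 24 h were 8.56 CPM with NCP26, 15.8 with NCP22 and 9.69 with DMSO. Against DMSO the NCP26 change of PYCR3 at 24 h did not pass the test. It ran from -0.32 to 0.065 when single libraries were left out.

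HFG and halofuginol differ by a ketone in the former that is an alcohol in the latter. In AMO1 cells at 6 h, 2 members were called (51.7%), ALDH18A1 at -0.87 (SE 0.075, adjusted p = 4.87e-08) and PARS2 at -0.52 (SE 0.21, adjusted p = 0.0493), and the PARS2 call was lost without any 1 of the 6 libraries and on library totals, at -0.35 (adjusted p = 0.173). EPRS1 differed there by 0.10 (95% interval -0.0057 to 0.21, adjusted p = 0.105), or 0.27 (adjusted p = 2.40e-04) on library totals. At 24 h, 3 were called (56.6%), with EPRS1 at 0.94 (SE 0.059, adjusted p = 2.39e-10), PYCR1 at 0.72 (SE 0.074, adjusted p = 1.76e-07) and ALDH18A1 at -0.40 (SE 0.080, adjusted p = 3.65e-04). In L363-CFZr cells at 6 h, 3 were called (47.3%), with EPRS1 at 0.60 (SE 0.036, adjusted p = 3.20e-14), PYCR1 at 0.61 (SE 0.051, adjusted p = 4.86e-11) and ALDH18A1 at -0.33 (SE 0.061, adjusted p = 5.87e-05). At 24 h, 2 were called (21.9%), EPRS1 at 0.64 (SE 0.050, adjusted p = 1.98e-07) and PYCR1 at 0.30 (SE 0.067, adjusted p = 0.00499). In all 4 of these pairs both groups are of the same set.

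NCP26 against HFG compares inhibitors with different binding sites at the same dose. At 24 h in AMO1 cells 3 members were called (44.9%), all lower with NCP26. PYCR1 differed by -1.07 (SE 0.069, adjusted p = 6.90e-10), EPRS1 by -0.58 (SE 0.041, adjusted p = 2.33e-09) and ALDH18A1 by -0.29 (SE 0.078, adjusted p = 0.00583), which was -0.28 (adjusted p = 0.0517) by DESeq2. PYCR1 was the member with the widest gap between the inhibitors, at 76.7 ± 3.73 CPM with NCP26 and 158 ± 4.91 with HFG (SD, n = 3). At 6 h in AMO1 cells edgeR and DESeq2 called 0 members (0.26%), 0 had an unadjusted p under 0.05, and the intervals were -0.20 to 0.22 for EPRS1, -0.050 to 0.42 for ALDH18A1 and -0.12 to 0.35 for PYCR1. In L363-CFZr cells both tools called 0 members at 6 h (0%) and 24 h (12.9%), with 0 and 2 at an unadjusted p under 0.05. At 6 h the NCP26 and HFG libraries of these cells are of different sets, so set and inhibitor cannot be told apart. For PYCR1 the difference was 0.11 (95% interval -0.073 to 0.29, adjusted p = 0.575) at 6 h and 0.074 (95% interval -0.063 to 0.21, adjusted p = 0.492) at 24 h, and for EPRS1 -0.21 (95% interval -0.44 to 0.027, adjusted p = 0.469) and 0.12 (95% interval -0.011 to 0.24, adjusted p = 0.221). Without NCP26 replicate 1 the last value was 0.18 (adjusted p = 0.00421), and on library totals 0.19 (adjusted p = 0.0477).

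**Figure D4:**
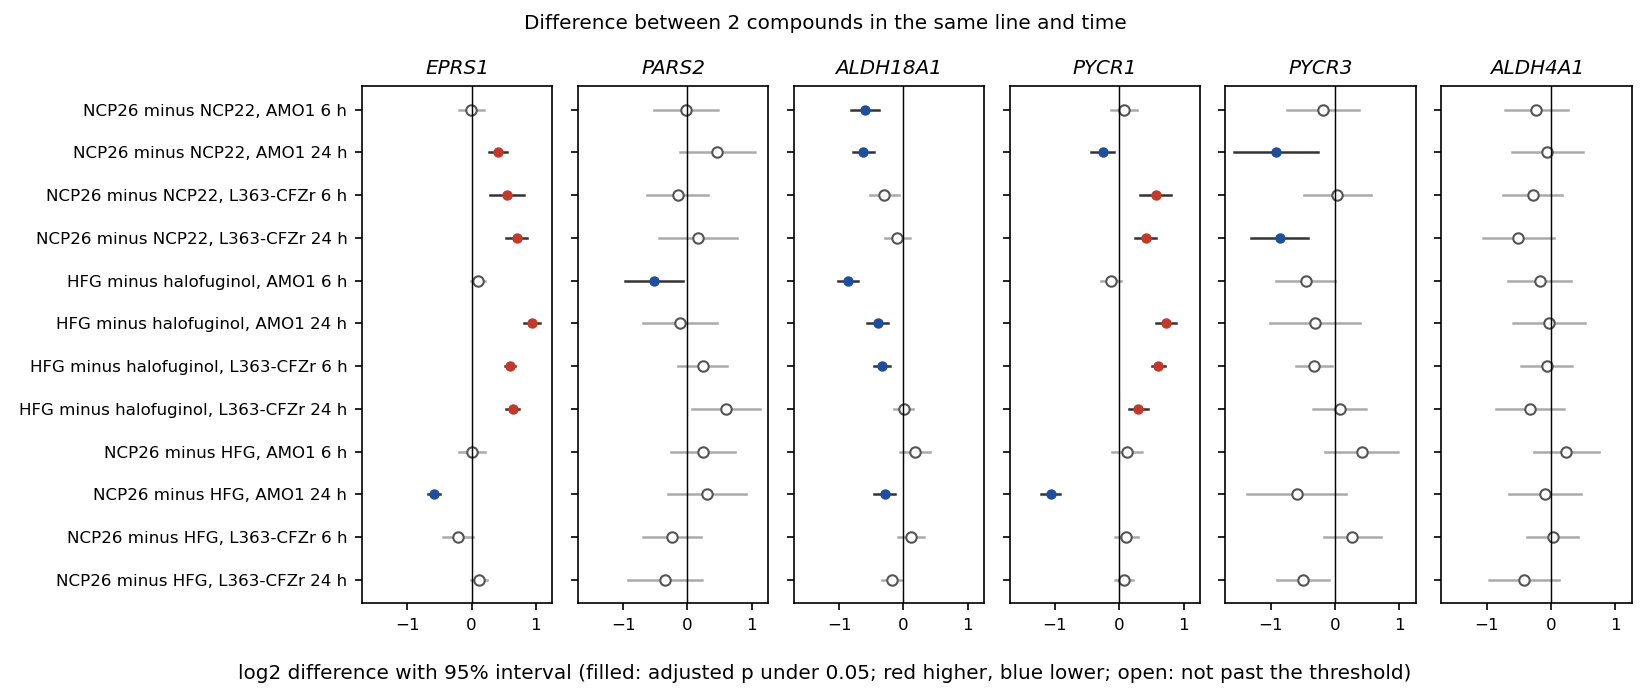
Log2 difference between 2 compounds in the same line and at the same time (horizontal axis, with its 95% interval) for 6 genes (panels) and 12 pairs (vertical axis). Filled points passed an adjusted p of 0.05, red above and blue below 0. For PYCR1 the largest gap is NCP26 minus HFG at 24 h in AMO1 cells (-1.07), while in L363-CFZr cells the same pair lies at 0.11 and 0.07 with open points. The L363-CFZr libraries of that pair are of different sets at 6 h.

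Without inhibitor the lines differed for some members. L363-CFZr against AMO1 with DMSO compares libraries of different sets, and within these libraries line and set cannot be told apart. The groups held no parental L363 and no carfilzomib-resistant AMO1 cells. Line and resistance therefore cannot be told apart here or in the responses below. At 6 h 4 of 6 members were called (60.2% of 10593 genes). EPRS1 was higher in L363-CFZr cells by 0.52 (SE 0.068, adjusted p = 1.29e-06), PYCR3 by 0.70 (SE 0.19, adjusted p = 0.00393) and PYCR1 by 0.27 (SE 0.086, adjusted p = 0.0108), and ALDH18A1 was lower, at -0.34 (SE 0.087, adjusted p = 0.00217). At 24 h 2 were called (39.9%), EPRS1 at 0.59 (SE 0.11, adjusted p = 0.00471) and PYCR1 at 0.35 (SE 0.12, adjusted p = 0.0433). With all groups in one fit and a term for the set, PYCR3 at 6 h was 0.46 (adjusted p = 0.412), ALDH4A1 at 6 h 1.08 (adjusted p = 0.0267) and PYCR1 at 24 h 0.11 (adjusted p = 0.710). The PYCR1 values were 0.15 (adjusted p = 0.0614) and 0.20 (adjusted p = 0.229) with the GC offset, and each lost its call in leave-one-out fits, at 6 h without AMO1 replicate 3 or L363-CFZr replicate 1 (0.20 and 0.23), and at 24 h without any library but L363-CFZr replicate 2 (0.28 to 0.39).

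The difference between lines in the response itself was tested for NCP26 and HFG as an interaction. In each of these interactions the libraries of the lines are of different sets. For NCP26, 1 member was called at 6 h (2.71%) and 2 at 24 h (5.41%), and for HFG 3 at 6 h (20.7%) and 1 at 24 h (16.9%). PYCR1 responded more positively in L363-CFZr cells by 0.63 (SE 0.14, adjusted p = 0.0223) to NCP26 at 6 h, by 0.85 (SE 0.13, adjusted p = 0.00374) at 24 h and by 0.64 (SE 0.11, adjusted p = 3.48e-04) to HFG at 6 h. For HFG at 24 h the difference was -0.26 (95% interval -0.54 to 0.0090, adjusted p = 0.173). The ALDH18A1 response was higher in L363-CFZr cells, by 0.53 (SE 0.11, adjusted p = 0.00169) for HFG at 6 h, 0.42 (SE 0.12, adjusted p = 0.0252) at 24 h and 0.50 (SE 0.11, adjusted p = 0.0244) for NCP26 at 24 h. At 24 h in those cells ALDH18A1 passed the test against DMSO with neither inhibitor. With all groups in one fit, the NCP26 difference at 6 h was also called for ALDH18A1, at 0.46 (adjusted p = 0.00104), and EPRS1, at 0.31 (adjusted p = 0.0358). EPRS1 rose more in L363-CFZr cells with HFG at 6 h, by 0.53 (SE 0.082, adjusted p = 7.24e-05). With HFG at 24 h its difference had the other sign, -0.35 (95% interval -0.59 to -0.10, adjusted p = 0.0540), and without DMSO replicate 2 of L363-CFZr it was -0.33 (adjusted p = 2.43e-04). With NCP26 at 24 h the EPRS1 difference was positive and not called in the reported fit. Without the same DMSO replicate 2 it was called, at 0.33 (adjusted p = 0.00631). It was also called by DESeq2, at 0.33 (adjusted p = 0.0493), and with all groups in one fit, at 0.34 (adjusted p = 0.0108). Of 12 leave-one-out fits each, the call for PYCR1 with NCP26 at 6 h was lost in 6, that for ALDH18A1 with NCP26 at 24 h in 9 and that for ALDH18A1 with HFG at 24 h in 5, while the other 4 calls held in each. With the term for the set the PYCR1 difference for HFG at 6 h was 0.33 (adjusted p = 0.174). Those for ALDH18A1 at 24 h without the filter were 0.52 (adjusted p = 0.0879) for NCP26 and 0.46 (adjusted p = 0.0726) for HFG. On library totals 3 calls were lost, PYCR1 with NCP26 at 6 h at 0.55 (adjusted p = 0.0581) and ALDH18A1 at 24 h at 0.38 (adjusted p = 0.0652) with NCP26 and 0.26 (adjusted p = 0.139) with HFG, while with HFG at 24 h EPRS1 gave -0.51 (adjusted p = 0.00943) and PYCR1 -0.43 (adjusted p = 0.0292).

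Over the 22 group means of log2 CPM, with each line centred on its own mean, the genes most like EPRS1 among 10159 were LARS1 (Pearson r = 0.94), PHGDH (0.93), which starts serine synthesis, and CLIP1 (0.92). Those most like ALDH18A1 were PFKM (0.93), BDH1 (0.92) and PTPRA (0.91), those most like PYCR1 were HAX1 (0.87), EIF4EBP1 (0.85) and SLC39A14 (0.83), and those most like PYCR3 were DPP3 (0.92), WDR4 (0.92) and DCTPP1 (0.91). ALDH4A1 was most like NAGPA, MPV17L2 and POLR2L (0.87 to 0.89) and PARS2 like STMP1, STAM and POLR2G (0.64 to 0.68). Between members, r was -0.49 for EPRS1 with ALDH18A1, 0.45 for EPRS1 with PYCR1, -0.02 for PYCR1 with ALDH18A1 and 0.72 for PYCR3 with ALDH4A1. The groups share libraries of the same sets and depth, and these values are descriptions.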

How the data were processed

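The authors sequenced poly(A) RNA with a directional kit and deposited 1 table of counts per gene (20167 genes, 66 libraries), made with kallisto on 31-mers. The methods name GRCh38 and the labels hg19, while the version of kallisto and its strand setting were not given in the sources. Total counts ran from 1666325 to 6596543, and no 2 libraries of a group held identical values (0 of 66 pairs). The deposited counts were tested as they are, with edgeR 4.0.16 (quasi-likelihood test, TMM, only the groups compared, filterByExpr with a minimum count of 10 and total of 15) and Benjamini-Hochberg adjustment over all genes tested, at 0.05. The study's own tests used DESeq2, here an alternative (1.42.0). The SE is the log2 fold change divided by the root of F. Other alternatives were DESeq2's size factors, no filter, all groups in one fit, a replicate block, a lowess offset on transcript GC content (span 0.3), both together, the set of sample numbers as a term, leaving out each library, and library totals without TMM, added after seeing the data. The fits were tested on simulated data first.

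The members and lists were chosen with earlier results of these data known. All 7 members are described, and of the lists of complex partners, proline and glutamate genes, transporters and ISR genes values are given for the 4 with the largest mean CPM and for others that passed the test with NCP26 or HFG in both lines, AIMP1, AIMP2 and EEF1E1 by counts of calls. The ISR genes are given as a list. GLUL is outside this rule. Some genes of these lists are not reported here and were left out of the counts and medians. The 3 genes most like each member were taken by Pearson correlation among genes with a mean of at least 5 CPM. Positions and GC content are from GENCODE v44, promoter windows from RefSeq. The dose of carfilzomib is not given in the labels, and the study states it in the nanomolar range, below that of the other compounds.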

Additional observations from a re-analysis of the deposited data

Results flagged for a closer look

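The difference between the lines in the response to an inhibitor passed the test of the interaction for 7 results, given as the log2 fold change in L363-CFZr minus that in AMO1 cells, by edgeR's quasi-likelihood test with adjustment over all genes. For PYCR1 it was 0.63 (SE 0.14, adjusted p = 0.0223) with NCP26 at 6 h, 0.85 (SE 0.13, adjusted p = 0.00374) with NCP26 at 24 h and 0.64 (SE 0.11, adjusted p = 3.48e-04) with HFG at 6 h. For ALDH18A1 it was 0.53 (SE 0.11, adjusted p = 0.00169) with HFG at 6 h, 0.42 (SE 0.12, adjusted p = 0.0252) with HFG at 24 h and 0.50 (SE 0.11, adjusted p = 0.0244) with NCP26 at 24 h. For EPRS1 it was 0.53 (SE 0.082, adjusted p = 7.24e-05) with HFG at 6 h. Of the 7, PYCR1 with HFG at 6 h lost its call with the term for the set, at 0.33 (adjusted p = 0.174). ALDH18A1 at 24 h lost it without the filter, at 0.52 (adjusted p = 0.0879) with NCP26 and 0.46 (adjusted p = 0.0726) with HFG, and in 9 and 5 of 12 fits that left out 1 library. PYCR1 with NCP26 at 6 h lost it in 6 of 12 such fits. These last 3 also lost it on library totals and with the replicate block. In each of these interactions the libraries of the lines carry sample numbers of different sets. For NCP26 at 6 h, DMSO and inhibitor share a set within each line. In AMO1 cells at 24 h, and in L363-CFZr cells with HFG at 6 h, DMSO and inhibitor are of different sets. Set and response cannot be told apart there. The part of the sets in these differences was not tested beyond the fits with a term for the set. No group had the 4 samples that a check for single outlying libraries needs.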

How the results depend on the processing

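With 3 libraries a group and medians of 3009496 counts in AMO1 and 3562784.5 in L363-CFZr cells, PARS2, PYCR3 and ALDH4A1 rest on at most 116 counts a library, and their intervals are wide. In simulated data for NCP26 at 6 h in AMO1 cells, 52% of genes changed by 0.5 and 94% of those changed by 1 on the log2 scale were recovered, and for the interaction 14% and 74%. The simulation gave all genes the same spread between replicates beyond counting noise. It changed only genes above a minimum mean count, and it held no outlying library. These shares therefore do not give the sensitivity for PARS2, PYCR3 and ALDH4A1.

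Each of the 62 called values was refitted under 8 other settings, and the call was lost in 66 of these 496 refits. Refits of uncalled values gained a call 30 times, and 0 refits of called values turned sign. The same call can be lost in several refits, so these counts are not numbers of calls. PYCR1 with NCP26 at 6 h in AMO1 cells turned from -0.02 to 0.24 (adjusted p = 0.0441) with the GC offset. Of 1232 refits of values not called as reported, 71 differed in sign, the largest being 0.38 as reported and 0.84 under the other setting, and these are not listed one by one. Leaving out single libraries lost the call in 68 of 414 refits of called values and turned the sign in 0 of them. Of 1026 refits of uncalled values, 20 gained a call and 101 turned sign. The cause of these moves was not tested.

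Replicate numbers did not pair the samples in any of the 32 comparisons checked (0 paired), so the replicate block is only an alternative. With the replicate block the number of members called became 1 instead of 2 for NCP26 and for HFG against halofuginol at 6 h in AMO1 cells, 0 instead of 1 for CFZ at 24 h, 0 instead of 2 for NCP26 at 24 h in L363-CFZr cells, 1 instead of 2 for the lines at 24 h, and for the interactions 0 instead of 1 for NCP26 at 6 h, 1 instead of 2 for NCP26 at 24 h and 0 instead of 1 for HFG at 24 h. With the GC offset and the block together these counts were the same, and it also gave 1 instead of 4 for HFG, 2 instead of 1 for CFZ and 0 instead of 1 for NCP22 at 6 h in AMO1 cells, 2 instead of 4 for NCP26 against NCP22 at 24 h, and 1 instead of 2 for NCP26 and 0 instead of 1 for halofuginol at 6 h in L363-CFZr cells.

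With the GC offset alone the counts were 1 instead of 4 for HFG, 2 instead of 1 for CFZ, 0 instead of 1 for NCP22 and 1 instead of 2 for HFG against halofuginol at 6 h in AMO1 cells, 2 instead of 1 for CFZ and 2 instead of 4 for NCP26 against NCP22 at 24 h, 0 instead of 1 for halofuginol at 6 h in L363-CFZr cells and 1 instead of 2 for the lines at 24 h. DESeq2 called 2 instead of 4 for HFG, 1 instead of 0 for halofuginol and 1 instead of 2 for HFG against halofuginol at 6 h in AMO1 cells, 2 instead of 4 for NCP26 against NCP22 at 24 h, 2 instead of 0 for HFG at 24 h in L363-CFZr cells, 1 instead of 2 for the lines at 24 h and 2 instead of 1 for the HFG interaction at 24 h. Without the filter 1 instead of 2 was called for NCP26 and for HFG against halofuginol at 6 h in AMO1 cells, for NCP26 at 24 h in L363-CFZr cells, for the lines and for the NCP26 interaction at 24 h, and 0 instead of 1 for CFZ at 24 h and the HFG interaction at 24 h.

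With all groups of a line in one fit the counts were 3 instead of 1 for CFZ at 24 h, 0 instead of 1 for halofuginol at 6 h and 2 instead of 0 for HFG at 24 h in L363-CFZr cells, and 3 instead of 1 for the NCP26 interaction at 6 h and 2 instead of 1 for that of HFG at 24 h. A term for the set gave 3 instead of 5 for NCP26 and 2 instead of 1 for CFZ at 24 h in AMO1 cells, 2 instead of 4 for HFG and 0 instead of 1 for halofuginol at 6 h and 2 instead of 0 for HFG at 24 h in L363-CFZr cells, 1 instead of 2 for the lines at 24 h, and 3 instead of 1 for the NCP26 interaction at 6 h and 2 instead of 1 for that of HFG at 24 h. DESeq2's size factors left every count within 1.5 times. Library totals in place of TMM, added after seeing the data, gave 2 instead of 4 for HFG at 6 h in AMO1 cells, 1 instead of 0 for NCP26 against HFG at 24 h in L363-CFZr cells, and for the interactions 0 instead of 1 for NCP26 at 6 h, 1 instead of 2 for NCP26 at 24 h and 2 instead of 1 for HFG at 24 h. They lost 8 of 62 calls, added 5, turned 0 called and 21 of 154 uncalled values, and moved 40 of 154 levels by over 1 SD.

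Leaving out 1 library at a time, the members called ranged from 1 to 2 for NCP26, 2 to 4 for HFG, 1 to 2 for CFZ, 0 to 1 for halofuginol and 1 to 2 for HFG against halofuginol at 6 h in AMO1 cells, and from 0 to 3 for CFZ and 2 to 4 for NCP26 against NCP22 at 24 h. In L363-CFZr cells they ranged from 2 to 4 for NCP26, 1 to 2 for halofuginol and 1 to 3 for NCP26 against NCP22 at 6 h, and from 0 to 3 for NCP26, 0 to 2 for HFG and 0 to 1 for NCP26 against HFG at 24 h. For the lines at 24 h the range was 1 to 2, and for the interactions 0 to 1 for NCP26 at 6 h, 1 to 4 for NCP26 and 0 to 4 for HFG at 24 h.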
